A study of Mus musculus with 10 samples.

Results

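The 29 genes described here make, move, store or export cholesterol, and they were taken by name from the 27267 genes listed in the deposited expression table. They form a synthesis block of 18 genes and a handling block of 11 genes. The synthesis block holds 7 genes of the mevalonate arm, which leads from acetyl-CoA to farnesyl diphosphate, and 11 genes of the sterol arm, which leads from there to cholesterol. The handling block holds 3 genes of intracellular transport, 2 of uptake or its control, 1 of storage, 3 of efflux and 2 of oxysterol formation. *Ch25h*, an oxysterol gene, had a mean normalized count under 10 and was not tested, so 28 of the 29 genes entered the test across 13714 genes.

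RNA of interscapular brown adipose tissue (iBAT) was sequenced from C57BL/6 mice of 4 weeks on a standard chow diet, all labelled male, with 5 wild-type mice (WT 1 to 5) and 5 mice labelled global *Mgp*-KO (KO 1 to 5). *Mgp* encodes matrix Gla protein, a secreted inhibitor of calcification and of bone morphogenetic proteins. The knockout is global, so every cell type of the depot and of the rest of the body carries it, and the wild-type mice are labelled as unmodified for it. The question asked of the cholesterol genes was whether the synthesis steps and the uptake and efflux genes differed between the genotypes in the same way.

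Cells make cholesterol from acetyl-CoA through mevalonate, isoprenoids and squalene, and the transcription factor SREBP2 switches these genes on together when membranes run short of sterol. When sterol is plentiful, oxysterols activate the liver X receptors, whose targets include the efflux pumps *Abca1* and *Abcg1*, the carrier *Apoe* and *Mylip*, an E3 ubiquitin ligase that degrades lipoprotein receptors. In brown fat the same precursors also feed ubiquinone and prenylated proteins.

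Between 9253793 and 22252260 reads per library could be recovered from the normalized counts, which are the read counts divided by a size factor for each library. Replicates 1 to 3 of both genotypes had 19616366 to 22252260 reads, with 0.771% to 1.72% of them on mitochondrial ribosomal RNA genes, and replicates 4 and 5 had 9253793 to 13281873 reads, with 6.50% to 16.7%. With genotype in the limma model, 5243 of 13714 genes (38.2%) differed between these 2 sets, among them 6 of the 18 synthesis genes and 5 of the 10 tested handling genes. *Mgp* itself had normalized counts of 0, 0.765 and 0.821 in KO 1 to 3 but 500.2 and 331 in KO 4 and 5, against 466 to 1146 in wild type, so the reads go against the labels of KO 4 and 5. *Xist* had a normalized count of 5094 in WT 2, against at most 44.0 in the other 9 libraries, which goes against the male label of that mouse. All labels were kept, and "KO" below means the library so labelled. Results are therefore also given within each set and without WT 2, KO 4 and KO 5.

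The defining genes of brown adipocytes were present in every group, and no gene of the 5 marker lists was at 0 in all libraries. The summed normalized count of 12 brown adipocyte markers was 217209 to 418408 in wild type and 152324 to 308742 in KO, with a lower KO mean for 10 of the 12. *Fabp4* weighs heavily in this sum, with 101057 of the 226986 in WT 1, and hides larger differences of single markers. *Ucp1* had a mean of 60876 in wild type and 10201 in KO, and the groups did not overlap. The means were 3244 and 453 for *Dio2* and 688 and 39.0 for *Elovl3*, while *Pparg* and *Zic1* had higher KO means. The sum of 10 endothelial markers was 19839 to 33769 in wild type and 23664 to 63223 in KO, with a higher KO mean for all 10. For 12 macrophage markers the sums were 2070 to 3135 and 2663 to 3048, with a higher KO mean for 7. The 8 progenitor markers summed to 4670 to 5969 in wild type and 5385 to 11642 in KO. The KO mean was higher for 4 (*Cd34*, *Icam1*, *F3* and *Dcn*) and lower for *Pdgfra*, *Dpp4*, *Pi16* and *Cd55*. *Dcn* weighs heavily in this sum, with 9156 of the 11642 in KO 4. The 10 skeletal muscle markers summed to 45.7 to 6188 in wild type and 36.1 to 35839 in KO, and KO 2 and KO 5 were the high libraries. The part of these cell types in the results below was not tested, and in a whole depot fewer cells of a type and less RNA per cell cannot be told apart.

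The promoters of the genes were read from the RefSeq table for GRCm38.p6, in which 22 of the 29 were found (15 synthesis and 7 handling genes). They are shown because SREBP2 is known to bind sterol regulatory elements next to CCAAT boxes. The 250 bases before the start were searched on both strands for the sterol regulatory element TCACNCCAC, for CCAAT and for the liver X receptor element (AGGTNA repeated after 4 bases), and none of the matches shown overlap each other. The first motif was found in 1 of the 15 synthesis genes, *Hmgcs1*, where the match TCACCCCAC begins 137 bases before the start, in 0 of the 7 handling genes and in 1.23% of all 27025 genes with a promoter in the table. CCAAT was found in 14 of the 15 synthesis genes (93.3%), with *Acat2* as the exception, in 4 of the 7 handling genes (57.1%) and in 37.5% of all genes. The third motif was found in none of the 22 genes and in 25 of the 27025. *Hmgcs1* is printed as the holder of the first motif, and *Nsdhl* and *Pmvk*, chosen after their values were seen, as the synthesis genes with the lowest p-values below. Capitals mark matches of the first 2 motifs, and CCAAT on the reverse strand reads ATTGG. All 3 lie on the forward strand, *Hmgcs1* at chr13:119690101-119690350, *Nsdhl* at chrX:72918271-72918520 and *Pmvk* at chr3:89454291-89454540, the first of 2 starts listed for that gene.
Hmgcs1: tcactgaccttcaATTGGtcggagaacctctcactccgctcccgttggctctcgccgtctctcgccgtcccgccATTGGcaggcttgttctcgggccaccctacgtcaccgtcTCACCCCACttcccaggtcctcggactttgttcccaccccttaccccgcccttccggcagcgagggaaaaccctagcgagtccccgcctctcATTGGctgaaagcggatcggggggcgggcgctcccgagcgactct
Nsdhl: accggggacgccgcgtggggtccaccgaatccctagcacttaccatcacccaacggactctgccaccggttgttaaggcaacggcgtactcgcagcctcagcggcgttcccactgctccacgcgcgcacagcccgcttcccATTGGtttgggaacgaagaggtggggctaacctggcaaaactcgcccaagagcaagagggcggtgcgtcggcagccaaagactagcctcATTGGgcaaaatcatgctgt
Pmvk: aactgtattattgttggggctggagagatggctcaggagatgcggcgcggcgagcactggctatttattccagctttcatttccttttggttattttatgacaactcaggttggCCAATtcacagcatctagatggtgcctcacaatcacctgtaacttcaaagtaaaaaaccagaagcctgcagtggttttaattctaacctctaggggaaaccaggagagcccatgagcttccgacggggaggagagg
The matches are a description of these letters and carry no measure of binding in iBAT.

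In the fit of all 10 libraries none of the 28 genes passed the threshold, and most of the differences pointed to lower synthesis genes and higher handling genes in KO. With limma on log2(normalized count + 1) and an adjusted p under 0.05, 0 of 18 synthesis genes and 0 of 10 handling genes were called, against 0.0583% of all tested genes called lower and 0.00729% called higher. At an unadjusted p under 0.05, 4 synthesis genes were lower (*Pmvk*, *Nsdhl*, *Lss* and *Hmgcs1*) where 5.69% of all genes were, and 1 handling gene was higher (*Mylip*) where 4.67% were. edgeR called none of the 28 either. DESeq2 with genotype alone called 2 synthesis genes lower, *Pmvk* and *Nsdhl*, where 1.26% of the genes it tested were. The study also used DESeq2, but its model terms are not given in the sources used here. With a set term DESeq2 called more of the 28 genes, as given below.

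Both blocks held log2 fold changes of both signs, in different shares. The log2 fold change was below 0 for 17 of the 18 synthesis genes, with *Fdft1* as the exception, against 47.3% of all tested genes. It was above 0 for 8 of the 10 handling genes, with *Npc2* and *Abca1* as the exceptions, against 52.7%. The median log2 fold change was -0.53 over the synthesis genes (range -1.41 to 0.51), -0.80 over the mevalonate arm and -0.43 over the sterol arm. Over the handling genes it was 0.31 (range -0.63 to 1.22), and over all tested genes 0.03. These genes share their libraries and are not independent of each other, so the counts describe the blocks and are no test of them.

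The contrast can also be read library by library, as the mean log2(normalized count + 1) of the 18 synthesis genes minus that of the 11 handling genes. In WT 1 to 5 this difference was -1.33, -0.95, -0.98, -1.27 and -0.01, and in KO 1 to 5 it was -1.70, -2.19, -1.79, -1.72 and -1.47. Every KO library thus lay below every wild-type library, the nearest being KO 5 at -1.47 and WT 1 at -1.33, and WT 5 stood above the other 9. The handling mean includes *Ch25h*, untested for its low counts, at 0 in KO 5 and 22.7 in KO 4. Which libraries lie nearest depends in part on that gene. The genes were chosen with earlier results of these data known, and no share over other gene blocks was computed. This separation therefore describes the 2 blocks and is no test of them. The mean of the synthesis genes alone was 8.21 ± 0.43 in wild type and 7.63 ± 0.15 in KO (SD, n = 5 each), and that of the handling genes 9.12 ± 0.15 and 9.41 ± 0.29. Each block taken alone overlapped between the groups, with synthesis values of 7.78 to 8.92 in wild type and 7.47 to 7.81 in KO, and handling values of 8.94 to 9.31 and 9.04 to 9.75.

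Levels can be compared between genes only per length, here as normalized counts per kilobase of all annotated exons. In wild type *Apoe* had the highest level per kilobase, 10853 ± 4125 (SD, n = 5), far above *Npc2* at 955 ± 192. Among synthesis genes *Acat2* (861 ± 339), *Hmgcs1* (783 ± 308) and *Pmvk* (499.7 ± 178) led per kilobase, and each of these means lay within 1 SD of the next higher one. *Idi1* (7.10 ± 4.28) and *Fdps* (10.8 ± 11.8), which work between them and the sterol arm, were the lowest of the synthesis genes per kilobase. *Soat1* (4.96 ± 0.56) and *Ch25h* (2.24 ± 1.34) were the lowest of the handling genes on the same scale. Exons that are rarely used in iBAT lower a value per kilobase, and the levels of *Acat2*, *Idi1* and *Fdps* are uncertain because between 25.3% and 39.1% of their 50-base windows also occur in transcripts of other genes, as do 11.6% of those of *Hmgcs1*.

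In the mevalonate arm all 7 log2 fold changes were below 0. *Acat2*, which joins 2 molecules of acetyl-CoA, had normalized counts of 1420.4 to 3160.2 in wild type and 1216 to 2965 in KO (log2 fold change -0.27). *Hmgcs1* adds the third acetyl unit, the step before mevalonate is made. Its normalized counts were 3445, 3896, 2632, 2178 and 5823 in WT 1 to 5 and 1894, 942, 2170.2, 2580.3 and 2831 in KO 1 to 5. Each KO library of replicates 1 to 3 was below each wild-type library of that set, and replicates 4 and 5 overlapped. Its log2 fold change was -0.80 (SE 0.34, unadjusted p = 0.0356, adjusted p = 0.429 from limma).

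*Mvk* and *Pmvk* encode the kinases that put the first and the second phosphate on mevalonate. The normalized counts of *Mvk* were 234, 250.1, 318, 144 and 194 in WT 1 to 5 and 212, 132, 223, 77.7 and 123 in KO 1 to 5 (log2 fold change -0.62, SE 0.31, adjusted p = 0.529 from limma). Those of *Pmvk* were 504, 612, 888, 1020.2 and 1256 in WT 1 to 5 and 311, 265, 306, 648 and 437 in KO 1 to 5. For *Pmvk* the groups overlapped only because WT 1 and WT 2 lay under KO 4, a library of the other set, and within each set every KO library was lower. Its mean was 856 ± 305 in wild type and 394 ± 156 in KO (SD, n = 5 each), a ratio of 2.17 of wild type over KO. On the log2 scale *Pmvk* differed by -1.12 (SE 0.31, unadjusted p = 0.00327, adjusted p = 0.200 from limma). *Pmvk* spans chr3:89454541-89469013 on the forward strand and overlaps no other annotated gene.

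*Mvd*, the decarboxylase that ends the mevalonate part, had normalized counts of 33.7 to 166 in wild type and 47.4 to 76.1 in KO (log2 fold change -0.15). *Idi1*, the isopentenyl diphosphate isomerase, had 33.6, 41.2, 29.4, 2.93 and 17.3 in WT 1 to 5 and 12.8, 13.0, 23.0, 6.48 and 0 in KO 1 to 5. Its values in WT 4 and KO 5 were under the floor of 3 reads, which is 2.15 to 5.19 normalized counts depending on the library. *Fdps*, which makes farnesyl diphosphate, had 21.5, 17.2, 19.8, 35.2 and 133 in WT 1 to 5 and 12.8, 8.41, 6.57, 30.8 and 21.1 in KO 1 to 5. Both genes were low throughout, and for each of them KO was lower within replicates 1 to 3 without overlap. Their log2 fold changes were -1.31 (SE 0.89) for *Idi1* and -1.18 (SE 0.59) for *Fdps*, neither of which passed an unadjusted p under 0.05 in limma.

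In the sterol arm *Nsdhl*, the dehydrogenase that helps remove the C4 methyl groups, had the largest difference of all 18 synthesis genes. Its normalized counts were 368, 562, 792, 325 and 1256 in WT 1 to 5 and 212, 179, 211, 248 and 252 in KO 1 to 5. Every KO library was below every wild-type library, the only such case among the 28 tested genes, and 2.11% of all tested genes were lower in KO in this way. The mean was 661 ± 381 in wild type and 220.3 ± 30.1 in KO (SD, n = 5 each) and the KO libraries lay much closer together than the wild-type ones. Its log2 fold change was -1.41 (SE 0.33, unadjusted p = 0.00119, adjusted p = 0.126 from limma). *Nsdhl* spans chrX:72918557-72958514 on the forward strand and shares no 50-base window with another gene's transcripts.

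*Lss* encodes lanosterol synthase, which folds the squalene epoxide into the first sterol. Its normalized counts were 460.0, 599.7, 759, 365 and 684 in WT 1 to 5 and 361, 400.1, 421, 159 and 229.8 in KO 1 to 5. KO was lower within both sets without overlap, while WT 4 lay among the KO libraries of the other set. The log2 fold change was -0.91 (SE 0.30, unadjusted p = 0.0114, adjusted p = 0.297 from limma). *Sqle*, the squalene epoxidase one step earlier, had 65.1, 111, 121, 51.3 and 359.9 in WT 1 to 5 and 55.8, 32.9, 56.7, 69.6 and 79.7 in KO 1 to 5. WT 5 was the high library, WT 4 lay under both KO libraries of its set, and the log2 fold change was -0.95 (SE 0.46, adjusted p = 0.517 from limma).

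**Figure D1:**
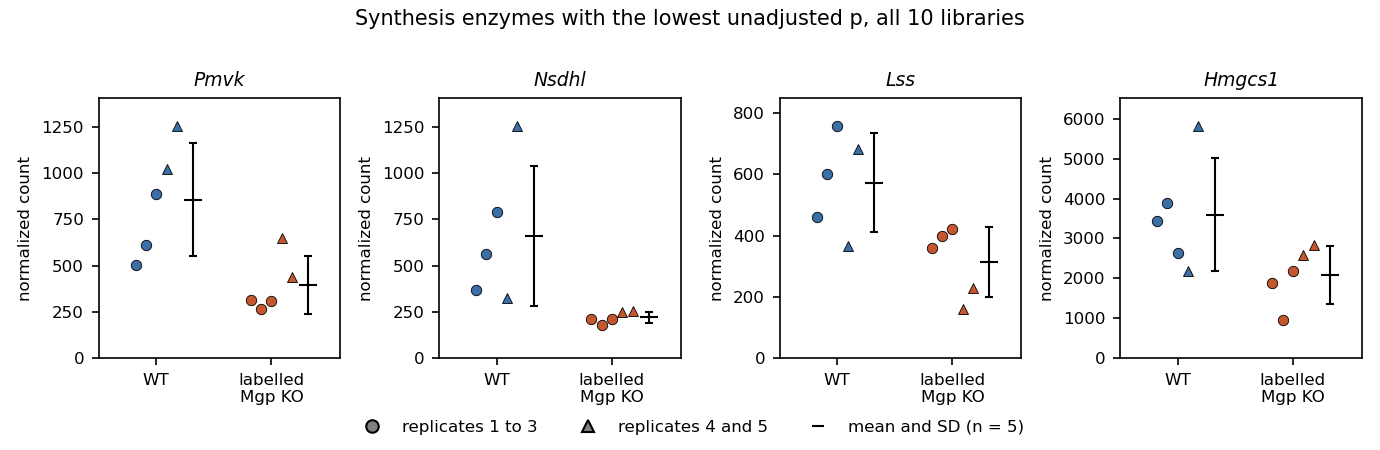
Normalized counts of the 4 synthesis genes with an unadjusted p under 0.05 in all 10 libraries, by group, with circles for replicates 1 to 3, triangles for replicates 4 and 5, and the mean and SD of 5 libraries beside them. The KO libraries of *Nsdhl* lie between 179 and 252 and the wild-type ones between 325 and 1256, while the groups of *Pmvk*, *Lss* and *Hmgcs1* overlap.

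*Fdft1*, squalene synthase, which commits farnesyl diphosphate to sterols, was the synthesis gene that went the other way, and its sets disagreed. Its normalized counts were 1390.0, 1523, 2341, 2011 and 1152 in WT 1 to 5 and 4216, 6367, 2916, 513 and 1664 in KO 1 to 5. KO 1 to 3 all lay above every wild-type library, and KO 4 lay below all of them. Over all libraries its log2 fold change was 0.51. Replicates 1 to 3 gave 1.33, with an adjusted p of 0.0626 in limma, and the other set gave -0.72. The difference between the sets had an unadjusted p of 0.0150 and an adjusted p of 0.455 in limma. In the annotation *Fdft1* overlaps *Ctsb* on the opposite strand, and 26.5% of its 50-base windows also occur in transcripts of *Ctsb* or *Gm6781*. The strand setting of the counting is not given in the sources used here, so reads of the 2 overlapping genes cannot be told apart.

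Of the 7 genes for the steps from lanosterol to cholesterol other than *Nsdhl*, none had an unadjusted p under 0.05 in limma. *Dhcr7*, the reductase of the last step, had normalized counts of 487, 537, 672, 217 and 239 in WT 1 to 5 and 482, 357, 456, 134 and 191 in KO 1 to 5. KO was lower in each of the 5 same-numbered comparisons, by as little as 482 against 487 in replicate 1, and the log2 fold change was -0.43 (SE 0.42). *Cyp51*, the lanosterol demethylase, was -0.04 over all libraries, 0.35 for replicates 1 to 3 and -0.64 for the other set. The remaining log2 fold changes were -0.31 for *Tm7sf2* (a C14 sterol reductase), -0.48 for *Msmo1* (the C4 methyl oxidase), -0.22 for *Hsd17b7* (a 3-ketosterol reductase), -0.14 for *Ebp* (the sterol isomerase) and -0.58 for *Sc5d* (the C5 desaturase).

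Counted over same-numbered libraries, KO was lower in all 5 comparisons for 7 synthesis genes (*Mvk*, *Pmvk*, *Fdps*, *Lss*, *Msmo1*, *Nsdhl* and *Dhcr7*), where 9.94% of all tested genes were. It was higher in all 5 for 1 handling gene, *Mylip*, where 8.95% were. Whether the numbers mark pairs of mice is not stated, so these counts serve as a description.

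Of the handling genes, those of intracellular transport showed no common direction. *Npc1*, the lysosomal membrane protein that exports cholesterol, had normalized counts of 1728, 1727, 2329, 709 and 706 in WT 1 to 5 and 2605, 4099, 2603, 442 and 819 in KO 1 to 5. KO was higher within replicates 1 to 3 without overlap, and replicates 4 and 5 of both groups lay below all others. *Npc2*, its soluble partner in the lysosome, was 4034 to 6062 in wild type and 3534 to 4804 in KO, a log2 fold change of -0.35 (SE 0.20). *Stard4*, a cytosolic sterol carrier, was 129 to 348 in wild type and 146 to 445 in KO (log2 fold change 0.30, SE 0.38), and all 4 libraries of replicates 4 and 5 were above the 6 of replicates 1 to 3.

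Of the 2 genes of uptake or its control, *Scarb1*, the receptor for high-density lipoprotein, had normalized counts of 1151 to 1761 in wild type and 1430.2 to 2305 in KO (log2 fold change 0.15, SE 0.19). *Mylip* degrades lipoprotein receptors, so a higher level of it is not a sign of more uptake. It had 773, 639, 778, 1085 and 673 in WT 1 to 5 and 1259, 2373, 1167, 1405 and 969.5 in KO 1 to 5. The groups of *Mylip* overlapped only in that WT 4, at 1085, lay above KO 5. The mean was 789.5 ± 176 in wild type and 1435 ± 548 in KO (SD, n = 5 each), a ratio of 1.82 of KO over wild type. The log2 fold change was 0.82 (SE 0.25, unadjusted p = 0.00657, adjusted p = 0.243 from limma). *Soat1*, which esterifies cholesterol for storage, was low, with 41.9 to 55.4 in wild type and 47.5 to 90.7 in KO (log2 fold change 0.30, SE 0.23).

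The 2 ABC pumps of cholesterol efflux did not share a direction. *Abcg1*, which loads cholesterol onto mature lipoprotein particles, had normalized counts of 186, 161, 193, 87.9 and 107 in WT 1 to 5 and 487, 1443, 465, 82.6 and 142 in KO 1 to 5. KO 1 to 3 stood above all other libraries, and the groups overlapped in replicates 4 and 5. The log2 fold change of *Abcg1* was 1.22 over all libraries (SE 0.64, adjusted p = 0.549 from limma), 1.94 for replicates 1 to 3 and 0.15 for the other set, with an unadjusted p of 0.0176 and an adjusted p of 0.455 for the difference between the sets.

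*Abca1*, which loads cholesterol onto lipid-poor apolipoproteins, had 2919, 2425, 2139, 2131 and 3769 in WT 1 to 5 and 1617, 3061, 2183, 806 and 1577 in KO 1 to 5. Replicates 1 to 3 overlapped, and in replicates 4 and 5 both KO libraries were below both wild-type ones. Its log2 fold change was -0.63 over all libraries (SE 0.32, adjusted p = 0.533 from limma), -0.16 for replicates 1 to 3 and -1.33 for the other set, with an unadjusted p of 0.0457 and an adjusted p of 0.479 for the difference between the sets.

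*Apoe*, which carries the exported cholesterol, had normalized counts of 29737, 24475, 33168, 16515 and 12123 in WT 1 to 5 and 47881, 44830.1, 38237, 13258 and 31564 in KO 1 to 5. KO 1 to 3 were the 3 highest libraries and KO 4 the second lowest, and the log2 fold change was 0.57 (SE 0.40, adjusted p = 0.668 from limma). *Cyp27a1*, the mitochondrial enzyme that makes 27-hydroxycholesterol, had 925, 776, 934, 651 and 438 in WT 1 to 5 and 1306, 1348, 1347, 539 and 1073 in KO 1 to 5. KO 1 to 3 lay within a narrow range above every wild-type library, and the log2 fold change was 0.57 (SE 0.30, adjusted p = 0.549 from limma). *Ch25h*, which makes 25-hydroxycholesterol, was 1.50 to 5.72 in wild type and 0 to 3.28 in KO 1, 2, 3 and 5, with 22.7 in KO 4. Outside KO 4 these values rest on few reads, and no difference between the groups is read from them.

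**Figure D2:**
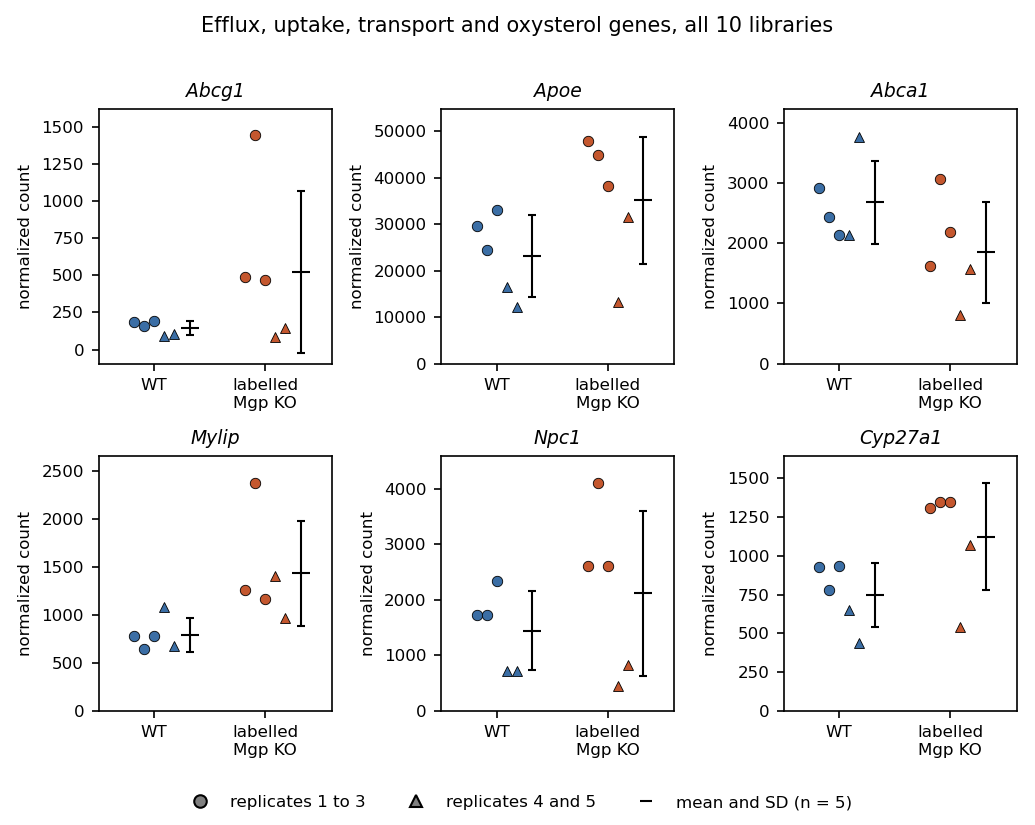
Normalized counts of 6 handling genes in all 10 libraries, by group, with circles for replicates 1 to 3, triangles for replicates 4 and 5, and the mean and SD of 5 libraries beside them. KO 2 is the highest library for *Abcg1* (1443), *Mylip* (2373) and *Npc1* (4099), and for *Abcg1*, *Apoe*, *Npc1* and *Cyp27a1* the KO libraries of replicates 4 and 5 lie below those of replicates 1 to 3.

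KO 2, the highest library for *Abcg1*, *Mylip*, *Npc1* and *Fdft1*, was also high in skeletal muscle markers, with a sum of 32510.3 against 36.1 to 41.5 in KO 1 and KO 3. KO 5 had a still higher sum, 35839, and was not the highest of all libraries for any of these 4 genes. It had 142 for *Abcg1*, 969.5 for *Mylip*, 819 for *Npc1* and 1664 for *Fdft1*. Within its own set, replicates 4 and 5, KO 5 was the highest library for *Abcg1* and *Npc1*. It lay under WT 4 for *Fdft1* (2011) and under WT 4 (1085) and KO 4 (1405) for *Mylip*. The part of muscle RNA in these values was not tested. Without KO 2 the log2 fold change over the other 9 libraries was 0.69 for *Abcg1*, 0.62 for *Mylip*, -0.04 for *Npc1* and 0.14 for *Fdft1*, and none of these 4 passed in limma.

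Within replicates 1 to 3 alone 4 of the 28 genes passed. *Mgp* reads match the genotype labels in this set, but it holds WT 2, whose *Xist* reads go against its male label. *Pmvk* (log2 fold change -1.14, adjusted p = 0.0345) and *Nsdhl* (-1.45, adjusted p = 0.0339) fell, where limma called 1.65% of all genes lower. *Abcg1* (1.94, adjusted p = 0.0491) and *Cyp27a1* (0.61, adjusted p = 0.0371) rose, where limma called 1.9% higher. The KO and wild-type libraries of this set did not overlap for 10 synthesis genes that were lower and 2 that were higher (*Fdft1* and *Cyp51*), against 15.1% of all genes lower and 15.5% higher. For handling genes the counts were 0 lower and 5 higher (*Npc1*, *Mylip*, *Abcg1*, *Apoe* and *Cyp27a1*). The median log2 fold change in this set was -0.38 over synthesis and 0.43 over handling genes.

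Within replicates 4 and 5 alone limma called 0.0% of all genes, none of the 28 among them, and 855 genes (6.23%) had an unadjusted p under 0.05, among them 2 synthesis genes and 1 handling gene, all lower in KO. All 18 synthesis genes had a log2 fold change below 0, with a median of -0.72, and the handling genes had a median of 0.40 with 7 of 10 above 0. Libraries did not overlap for 8 synthesis genes that were lower and 0 that were higher, against 21.3% of all genes lower and 20.3% higher. Of the handling genes 2 were lower (*Npc2* and *Abca1*) and 1 was higher (*Stard4*).

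With a term for the set in the limma model over all 10 libraries, *Pmvk* (adjusted p = 0.0141) and *Nsdhl* (adjusted p = 0.0440) fell, where 1.54% of all genes were called lower, and no handling gene was called, where 0.824% were called higher. The same term in edgeR gave the same 2 calls (adjusted p = 0.0146 and 0.0327, 1.56% of all genes lower). In DESeq2 with the term 4 synthesis genes fell, *Pmvk*, *Nsdhl*, *Lss* (adjusted p = 0.00635) and *Fdps* (adjusted p = 0.0282), against 3.91% of all genes, and 3 handling genes rose, *Abcg1* (adjusted p = 0.0146), *Mylip* (adjusted p = 0.0213) and *Cyp27a1* (adjusted p = 0.0488), against 3.5%. Over the other 27 settings the adjusted p of *Pmvk* ranged from 1.58e-06 to 0.679 and that of *Nsdhl* from 1.34e-04 to 0.679, with log2 fold changes of -1.56 to -0.96 and -1.62 to -1.13.

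A model with the difference between the sets found it for 0 of the 28 genes at an adjusted p under 0.05 in limma, with a lowest adjusted p of 0.455, where 0.00729% of all genes were called. *Fdft1*, *Abcg1* and *Abca1* had an unadjusted p under 0.05, where 10.3% of all genes did. Without WT 2, KO 4 and KO 5 limma called none of the 28, where 0.707% of all genes were called in either direction. At an unadjusted p under 0.05 it found 4 synthesis genes lower and 1 higher, and 1 handling gene lower and 5 higher, where 17.6% of all genes were past it in either direction. In that fit *Pmvk* was nearest, with a log2 fold change of -1.56 and an adjusted p of 0.0561, and *Nsdhl* had -1.55 and 0.142. The fit had no set term, and its KO libraries were all of replicates 1 to 3, while WT 4 and WT 5 are of the other set. Genotype and set are therefore partly mixed in it and cannot be fully told apart. With genotype in the model, *Pmvk* was higher in replicates 4 and 5 by a log2 fold change of 0.83.

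**Figure D3:**
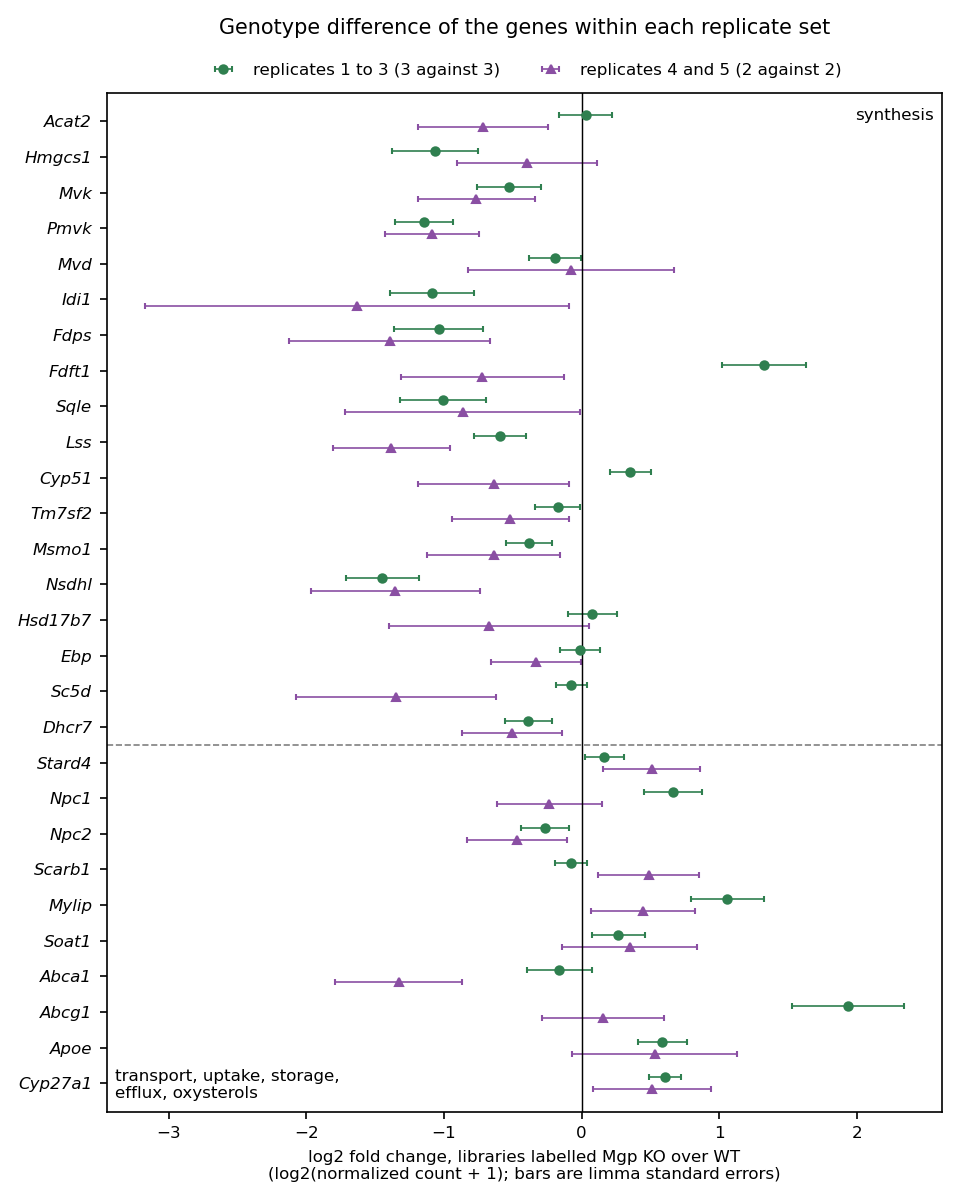
Log2 fold change of KO over wild type (log2(normalized count + 1)) for the 28 tested genes, with limma standard errors as bars, in green circles for replicates 1 to 3 and purple triangles for replicates 4 and 5. *Pmvk* and *Nsdhl* lie at nearly the same place in both sets (-1.14 and -1.09, -1.45 and -1.35), while *Fdft1* (1.33 and -0.72) and *Abcg1* (1.94 and 0.15) do not.

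WT 5 was the highest wild-type library for several synthesis genes at once. In WT 1 to 4 and then WT 5 the normalized counts were 33.7 to 68.7 and 166 for *Mvd*, 17.2 to 35.2 and 133 for *Fdps*, and 51.3 to 121 and 359.9 for *Sqle*. They were 245 to 368 and 1121 for *Cyp51*, 114 to 245 and 619 for *Msmo1*, and 544 to 638 and 2871 for *Sc5d*. WT 5 thus stood apart for 6 of the 18 synthesis genes by Dixon's test and for 0 of the 11 handling genes, against 2.17% of all tested genes. Without WT 5 the log2 fold changes of *Cyp51* and *Mvd* turned to 0.34 and 0.17. Those of the other 4 genes moved towards 0, from -1.18 to -0.68 for *Fdps*, from -0.95 to -0.52 for *Sqle*, from -0.48 to -0.08 for *Msmo1* and from -0.58 to -0.12 for *Sc5d*. With each of the 10 libraries left out in turn, the log2 fold change was -1.62 to -1.13 for *Nsdhl* and -1.32 to -0.96 for *Pmvk*, and the adjusted p in limma was 0.0657 to 0.316 and 0.0577 to 0.430.

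**Figure D4:**
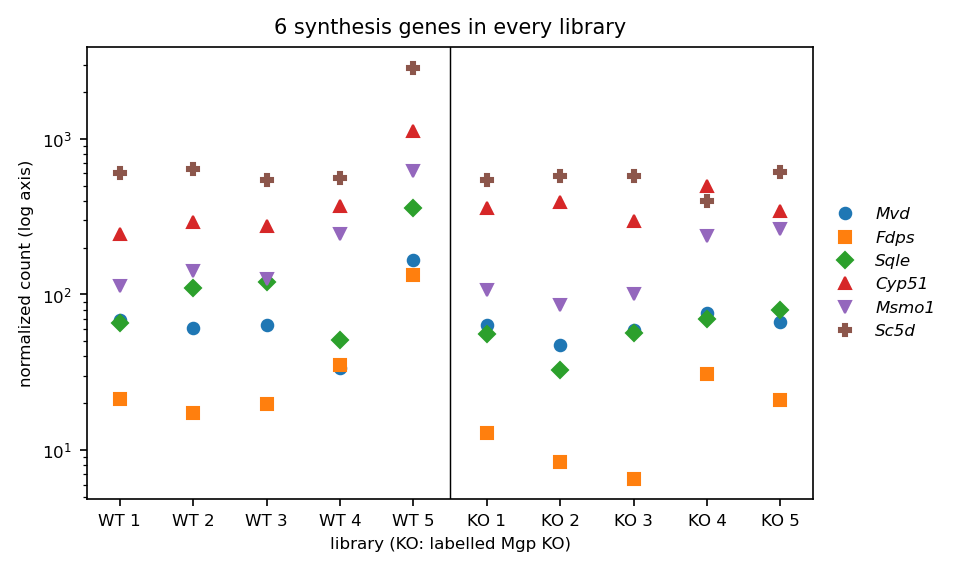
Normalized counts, on a log axis, of the 6 synthesis genes for which WT 5 stood apart, in each of the 10 libraries. WT 5 is the highest library for all 6 (for *Sc5d* 2871 against 401 to 638 in the other 9), and among the KO libraries *Cyp51* reaches at most 495 and *Fdps* at most 30.8.

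Of 36 other genes of the pathway, listed as regulators, non-sterol branches of the mevalonate arm and further handling genes, 33 were tested. None was called in limma over all libraries, and 3 were lower and 1 higher at an unadjusted p under 0.05, where 5.69% and 4.67% of all tested genes were. A log2 fold change below 0 was found for 22 of the 33, against 47.3% of all tested genes. With the set term *Nr1h3*, the liver X receptor alpha, fell (log2 fold change -0.57, adjusted p = 0.0431 from limma). Its normalized counts were 812, 780.2, 917.5, 1129 and 1082 in WT 1 to 5 and 699, 569, 610.1, 651 and 621 in KO 1 to 5, and every KO library was below every wild-type one. Within replicates 1 to 3 *Srebf1*, the SREBP1 gene, fell (-1.01, adjusted p = 0.0361), and *Fntb*, a protein farnesyltransferase subunit (1.27, adjusted p = 0.0141), and *Nceh1*, a cholesteryl ester hydrolase (1.65, adjusted p = 0.0225), rose in limma. These 3 were named after their values were seen. *Srebf2*, the gene of SREBP2, had a log2 fold change of -0.15 over all libraries (adjusted p = 0.895 from limma).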

How the data were processed

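Single reads of 50 bases were mapped by the authors to mm10 with STAR 2.5.3a and counted per gene. The authors then deposited normalized counts, a signal per gene obtained by dividing the counts of each library by its DESeq2 1.38.3 size factor. The annotation release and strand setting are not given in the sources used here. In every library all values were whole multiples of 1 read (largest deviation 0.00181 reads), and these recovered reads (9253793 to 22252260 per library) were used for edgeR 4.0.16 and DESeq2 1.42.0. Genes whose normalized counts averaged 10 or more were kept (13714), and log2(normalized count + 1) was fitted in limma 3.58.1 under R 4.3.3 (lmFit, eBayes with trend), with Benjamini-Hochberg adjustment over all of them and a threshold of 0.05. On this scale a change can come out smaller or larger than in DESeq2, and not only for low genes. *Fdps* had a log2 fold change of -1.18 in limma and -1.52 in DESeq2, *Idi1* had -1.31 and -1.16, and *Abcg1* had 1.22 and 1.83.

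All 29 genes are named; other pathway genes are named where they pass the main test or that with a set term, and further ones only where said. The members, lists, motifs and replicate sets were chosen with earlier results of these data known. The main fit, those with a set, block or interaction term, edgeR, DESeq2 and replicates 1 to 3 alone were also run on simulated data. Those data held no pairs of mice and no wrong labels, so they cannot show how the fits handle either. The methods describe 5 pairs of mice and give no batch, and p-values measure the spread between these libraries. Gene positions and exon lengths come from GENCODE for GRCm38 (mm10) and promoters from RefSeq. The floor of 3 reads covers counting error only. The alternatives were pseudocounts of 0.5 and 10, no filter or a mean of at least 50, no trend, equal upper quartiles, quantile normalization, the replicate number as a block, the other tools, a set term, each set alone, each library left out, and, added after the data were seen, WT 2, KO 4 and KO 5 left out together.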

Additional observations from a re-analysis of the deposited data

Results flagged for a closer look

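A library far from the others of its group, by Dixon's test at its 95% critical value, was found in 7 of 58 groups of 5 libraries examined (each of the 29 genes in each genotype). The nominal rate of 1 in 20 holds for independent values of normal spread. These were untransformed counts of related genes, in groups that mix both sets. No share over all genes was computed for this count, so no excess over chance is read from it. WT 5 was the flagged high library of wild type for 2.17% of all tested genes. In wild type the high library was WT 5 each time, with normalized counts of 166 for *Mvd*, 133 for *Fdps*, 359.9 for *Sqle*, 1121 for *Cyp51*, 619 for *Msmo1* and 2871 for *Sc5d*. In KO it was KO 4 for *Ch25h*, at 22.7, where the other KO libraries were between 0 and 3.28. WT 5 belonged to the set with fewer reads and more mitochondrial ribosomal RNA, as did WT 4, which did not stand apart for these genes. What sets WT 5 apart was not tested.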

How the results depend on the processing

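Over 27 other settings, the log2 fold changes of the 28 genes kept their direction and their side of the threshold in 717 results, came past the threshold in 21 and turned in 15, none of them past the threshold. Synthesis genes called went from 0 to 2 in DESeq2, with the set term in limma or edgeR and in replicates 1 to 3 alone, and to 4 with the set term in DESeq2. Handling genes called went from 0 to 2 in replicates 1 to 3 alone and to 3 with the set term in DESeq2. Other pathway genes called went from 0 to 1 in DESeq2 and with the set term in limma or edgeR, to 3 in replicates 1 to 3 alone and to 5 with the set term in DESeq2 (*Srebf1*, *Nr1h3* and *Pdss2* lower, *Fntb* and *Nceh1* higher). The median over handling genes went from 0.31 to 0.55 in DESeq2, which also fitted *Ch25h*. Genes whose difference depended on the set went from 0 to 4 without KO 5 (*Acat2*, *Fdft1*, *Npc1* and *Scarb1*), when KO 4 stood alone and was assumed to vary like the other groups. Over all tested genes 9 were called, against 1 with no filter, 15 with a mean of at least 50, 29 with a pseudocount of 10, 34 with quantile normalization, 3 in edgeR, 374 in DESeq2, 324, 341 and 1152 with the set term in limma, edgeR and DESeq2, 486 in replicates 1 to 3 alone and 0 in replicates 4 and 5 alone. The cause of these moves was not tested.

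Results that turned were, in replicates 1 to 3 alone, *Acat2* (0.0298), *Cyp51* (0.35), *Hsd17b7* (0.0773) and *Scarb1* (-0.0766), and in replicates 4 and 5 alone *Fdft1* (-0.72) and *Npc1* (-0.23). Without WT 2, KO 4 and KO 5 they were *Idi1* (0.0078), *Hsd17b7* (0.30), *Dhcr7* (0.25) and *Stard4* (-0.31). Genotype and set are partly mixed in that fit. In replicates 1 to 3 and in replicates 4 and 5, *Dhcr7* (-0.39 and -0.50) and *Stard4* (0.17 and 0.51) kept the sign of the main fit. With 1 library left out the results that turned were *Mvd* (-0.40 to 0.17, turned without WT 5), *Cyp51* (-0.20 to 0.34, turned without WT 5 or KO 3), *Hsd17b7* (-0.54 to 0.0792, turned without KO 4) and *Npc1* (-0.0358 to 0.77, turned without KO 2).

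The groups share replicate numbers, but same-numbered libraries deviated together with correlations of 0.0559 to 0.527, against a mean of 0.416 for other numbers of the same set, and the lowest, for replicate 2, was under the 0.1 set for taking the numbers as pairs. The methods speak of 5 pairs of mice without saying what pairs them, so whether the numbers mark pairs is not settled by these values. With that number as a block, limma and edgeR each called 2 synthesis genes (*Pmvk* and *Nsdhl*), 0 handling genes and 1 other pathway gene (*Srebf1*), with 270 and 222 genes called in all, and 2 wild-type libraries correlated best with their own number. Depth limits *Ch25h*, *Idi1* and *Fdps*, whose lowest libraries hold few reads.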
